A study of Mus musculus with 6 samples.

Results

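The natriuretic peptide system was examined in embryonic mouse hearts with and without Tie2 in the lineage of the endocardium, the inner lining of the heart. The group holds 7 genes, taken by symbol from the 38918 genes of the expression table: the peptide genes Nppa, Nppb and Nppc, the receptor genes Npr1, Npr2 and Npr3, and Corin, which encodes a peptide-processing protease. All 7 were found, each in a single row. The genes were chosen with the genotype difference of some of them already known, so their values are given as a description, with no test.

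RNA came from whole hearts on a C57/BL6 background at embryonic day 11.5. The control embryos were Tie2 flox/wild-type and the conditional knockout embryos were Nfatc1Cre:Tie2 flox/flox, in which a Cre recombinase named for Nfatc1, a gene of the endocardium, deletes the gene for the angiopoietin receptor Tie2 (Tek). A total of 18 hearts were used per genotype, and the 3 libraries of a genotype were portions of pooled RNA, per the series text. The SD, SE and p-values below therefore rest on the spread between libraries and not on that between embryos. The control label names no Cre, so the presence of Cre and the loss of Tie2 cannot be told apart.

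Atrial natriuretic peptide (Nppa) and B-type natriuretic peptide (Nppb) are hormones of heart muscle cells, and in the embryo their genes are markers of the forming chambers and trabeculae. Both peptides act on the receptor Npr1, a guanylyl cyclase that makes the second messenger cGMP. C-type natriuretic peptide (Nppc) acts on the related cyclase Npr2. Npr3 binds all 3 peptides but has no cyclase domain: it removes them from the extracellular space and can signal through inhibitory G proteins, and in the embryonic heart it is a marker of the endocardium. Corin cuts the Nppa precursor into its active form on the surface of cardiomyocytes.

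The 3 peptides share a ring of 17 residues closed by a disulphide bridge, which is the part that the receptors bind. The coding bases of this ring were read from the GENCODE transcripts on GRCm38 for Nppb and Nppc, a ligand of each cyclase receptor. They lie within exon 2 of 3 in both genes and are shown 5′ to 3′ with the bases common to both in capitals, because they show how alike the ligands of 1 receptor family are. The stretches are chr4:147986464-147986514 on the plus strand for Nppb and chr1:86669667-86669717 on the minus strand for Nppc.
Nppb: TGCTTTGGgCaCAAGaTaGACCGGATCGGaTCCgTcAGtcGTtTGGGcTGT
Nppc: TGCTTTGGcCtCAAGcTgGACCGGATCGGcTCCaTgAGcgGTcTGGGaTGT
Of the 51 ring bases, Nppb and Nppc shared 40 (78.4%), although the genes lie on different chromosomes. Nppa and Nppb lie next to each other on chromosome 4.

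Library-wide values were similar between libraries, with some exceptions. FPKM values (fragments scaled by the authors for transcript length and for the mapped fragments of a library) summed to between 481300 and 582300 per library, and between 12650 and 13040 genes reached 1 FPKM. Read depth could not be derived from the table. Tek stood at 22.4, 25.7 and 16.6 FPKM across the control libraries, against 3.38, 3.13 and 3.13 FPKM in the conditional knockouts, so the libraries matched their genotype labels. Conditional knockout replicate 1 had the lowest sum of 8 cardiomyocyte genes, at 7500 FPKM against 10390 to 11550 FPKM in the other libraries. Among 5 liver genes the sum ranged from 0.883 to 213 FPKM within the conditional knockouts, a wide range for portions of 1 pool. The embryonic globin genes Hbb-y and Hba-x were listed at 0 in all controls and had means of 20160 and 14470 FPKM in the conditional knockouts. The part of these differences in the values below was not tested.

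At this stage the peptide genes spanned the widest range of the family. Nppa was the most abundant, with a mean of 739 FPKM in controls that placed it 94th among all listed genes, and Nppb followed at 135 FPKM, in place 542. Npr3 was next in controls at 26.7 FPKM, then Corin at 16.2, Npr2 at 6.68 and Npr1 at 4.51 FPKM, and Nppc was last. FPKM divides by transcript length, so these levels may be set beside each other. The level of Nppa is less certain, because it shares exonic sequence with an antisense transcript described below. Of neighbours in this order, Npr2 and Npr1 overlapped between control libraries, at 3.94 to 8.39 and 3.75 to 5.17 FPKM, and no other neighbours did. In the conditional knockouts the order changed at a single place, with Corin at 18.5 FPKM above Npr3 at 11.5 FPKM, and no neighbours overlapped.

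**Figure D1:**
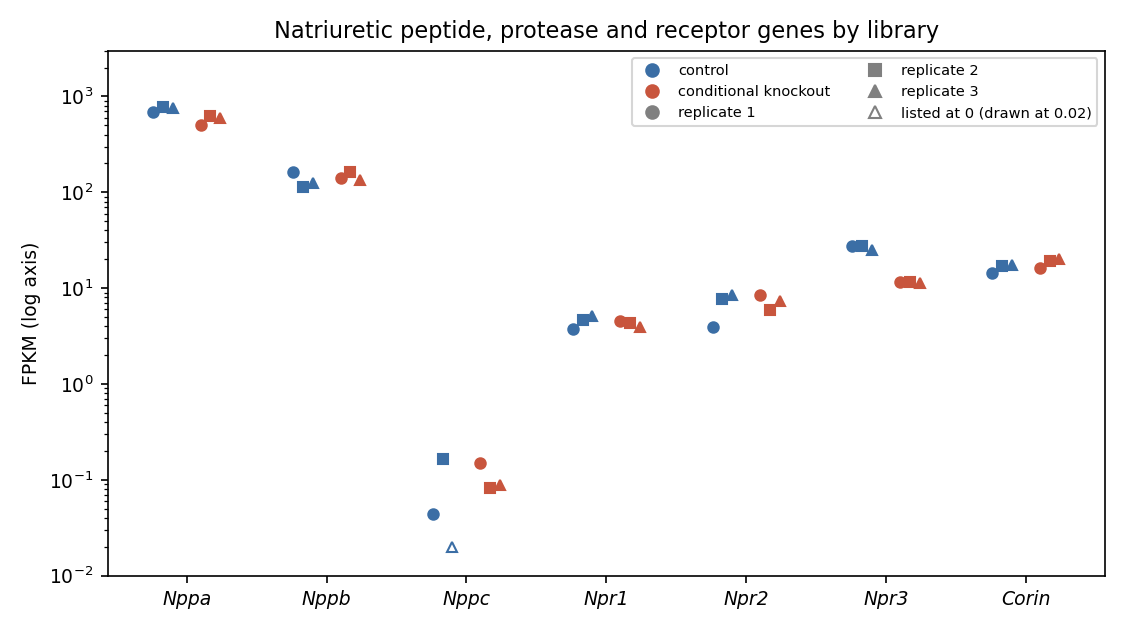
FPKM of the 7 genes in each library on a log axis, with controls in blue, conditional knockouts in red and the replicate number as the marker shape. Npr3 is separated between the groups (24.9 to 27.7 against 11.2 to 11.6 FPKM) and Nppa more narrowly (681 to 779 against 503 to 627 FPKM), while the other 5 genes overlap.

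The clearance receptor gene Npr3 was at 0.429 of its control level in the conditional knockout hearts. Npr3 lies on chromosome 15 from 11839896 to 11907287 on the minus strand (GRCm38) and its first listed transcript has 8 exons. It stood at 27.5, 27.7 and 24.9 FPKM in control replicates 1, 2 and 3 and at 11.6, 11.6 and 11.2 FPKM in conditional knockout replicates 1, 2 and 3. The groups did not overlap, and the conditional knockout libraries lay closer together than the controls. The means were 26.7 ± 1.56 and 11.5 ± 0.243 FPKM (SD, n = 3 each), a reduction of 57.1%. On the log2(FPKM + 1) scale the difference, conditional knockout minus control, was -1.15 ± 0.09 (moderated SE from limma), and it lay between -1.21 and -1.13 under 14 other settings. In the order of all genes by mean level it held place 3110 in controls and place 6167 in conditional knockouts.

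For both cyclase receptor genes the groups overlapped. Npr1, on chromosome 3 from 90450591 to 90465866, encodes the receptor for the peptides of Nppa and Nppb. It stood at 3.75, 4.60 and 5.17 FPKM across the control libraries, against 4.51, 4.31 and 3.96 FPKM in conditional knockouts, with all conditional knockout values inside the control range. Its log2 difference was -0.06 ± 0.13 (SE), and without control replicate 3 the sign turned, at 0.03. Npr2, on chromosome 4 from 43631935 to 43651244, encodes the receptor for the peptide of Nppc. It stood at 3.94, 7.71 and 8.39 FPKM across the control libraries, against 8.56, 5.95 and 7.31 FPKM in conditional knockouts. Control replicate 1 was the lowest of the 6 libraries, and the other 5 overlapped between the groups. The log2 difference of Npr2 was 0.15 ± 0.25 (SE), but it was -0.14 without control replicate 1 and -0.25 within replicates 2 and 3.

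The make-up of the receptor transcripts differed between the groups accordingly. Npr3 made up 78.2%, 69.2% and 64.8% of the summed FPKM of the 3 receptor genes in controls and 47.0%, 53.1% and 49.8% in conditional knockouts. The share of Npr3 was 70.7 ± 6.82% in controls and 49.98 ± 3.07% in conditional knockouts (SD, n = 3 each), with no overlap. The summed level of all 3 receptors was 37.9 ± 2.44 and 23.0 ± 1.47 FPKM, whereas the sum of the cyclase receptors Npr1 and Npr2 was 11.2 ± 3.09 and 11.5 ± 1.42 FPKM. The ratio of the clearance receptor to the cyclase receptors was 3.58, 2.25 and 1.84 in controls and 0.887, 1.13 and 0.993 in conditional knockouts. These shares follow from the difference in Npr3 and are not a separate result.

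**Figure D2:**
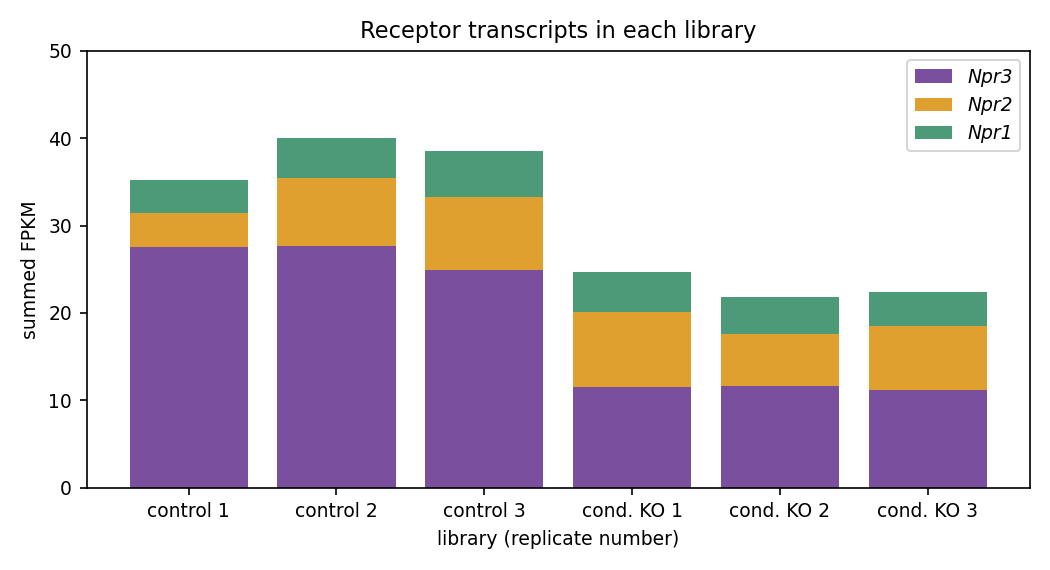
Summed FPKM of the 3 receptor genes in each of the 6 libraries, stacked by gene. The Npr3 segment is shorter in every conditional knockout library (11.2 to 11.6 FPKM) than in every control (24.9 to 27.7 FPKM), while the summed Npr1 and Npr2 segments overlap (controls 7.70 to 13.6 FPKM, conditional knockouts 10.3 to 13.1 FPKM).

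Some other transcripts of the endocardium were also lower in the conditional knockouts. Of 10 endocardial marker genes other than Npr3, 4 fell in limma over all 12988 genes tested, 6 did not pass and none rose. Over all genes 0.123% were called lower and 0.0539% higher. The list was chosen with earlier results of these data known, so its counts describe these genes and are not independent support. Plvap, which forms the diaphragms of endothelial openings, went from 60.7 to 25.4 FPKM (adjusted p = 0.0164), the endothelin receptor gene Ednrb from 41.9 to 20.4 FPKM (adjusted p = 0.0113), Tmem100, a membrane protein gene of endothelium, from 8.19 to 2.66 FPKM (adjusted p = 0.0245) and the adhesion receptor gene Gpr126 from 15.9 to 7.41 FPKM (adjusted p = 0.0245). With the replicate number as a block 3 of these were called, without Tmem100 (adjusted p = 0.0542), where 0.0847% of all genes were called lower and 0.0462% higher. These calls were not stable to leaving out 1 library: Plvap was called without control replicate 1 or 3 (adjusted p = 0.033 to 0.127 over the 6 fits), Ednrb without control replicate 1 (0.0287 to 0.0907), Tmem100 without conditional knockout replicate 1 (0.0177 to 0.171) and Gpr126 in none of the 6 (0.0644 to 0.171). The summed level of the 10 genes was 348 to 395 FPKM for the controls versus 242 to 282 FPKM for the conditional knockouts, the median log2 difference was -0.53 against -0.01 over all genes tested, and no marker was at 0. Of 12 markers shared by endothelial cells, none passed in limma and 10 lay below 0 (median -0.33; 7 lower and 1 higher at an unadjusted p under 0.05, beside 4.37% and 2.31% of all genes), with sums of 294 to 341 and 223 to 247 FPKM. In whole hearts, fewer endocardial cells and less Npr3 RNA per cell cannot be told apart, and the part of cell number in the Npr3 difference was not tested.

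Set against single transcripts of the same cells, the relative level of Npr3 depended on the reference gene. Relative to Plvap, the ratio was 0.442 ± 0.0274 in controls and 0.454 ± 0.0373 in conditional knockouts (SD, n = 3 each), so both genes were lower by nearly the same factor. Relative to Nfatc1, the gene whose name the Cre driver carries, the ratio was 1.78 ± 0.0288 and 1.06 ± 0.0827. Relative to Pecam1, an adhesion gene of all endothelial cells, it was 0.656 ± 0.0575 and 0.369 ± 0.0384. Relative to Cdh5, the cadherin gene of endothelial junctions, it was 0.537 ± 0.0699 and 0.380 ± 0.0419. Relative to Emcn, a sialomucin gene of endocardium and veins, it was 0.587 ± 0.0271 and 0.240 ± 0.0402. Apart from Plvap, the libraries of the groups did not overlap in any of these ratios. Relative to the sum of the 10 endocardial markers the ratio was 0.0725 ± 0.0032 and 0.0440 ± 0.00352, again without overlap. Of the single reference genes only Plvap was called lower in limma. For Nfatc1, Pecam1 and Cdh5 all conditional knockout libraries still lay below all controls, at 0.720, 0.766 and 0.605 of the control mean. Emcn overlapped between the groups, at 1.07 of the control mean. The other called endocardial markers, Ednrb, Tmem100 and Gpr126, were not used as references. These reference genes were picked with their own differences in view, and the ratios carry no test.

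**Figure D3:**
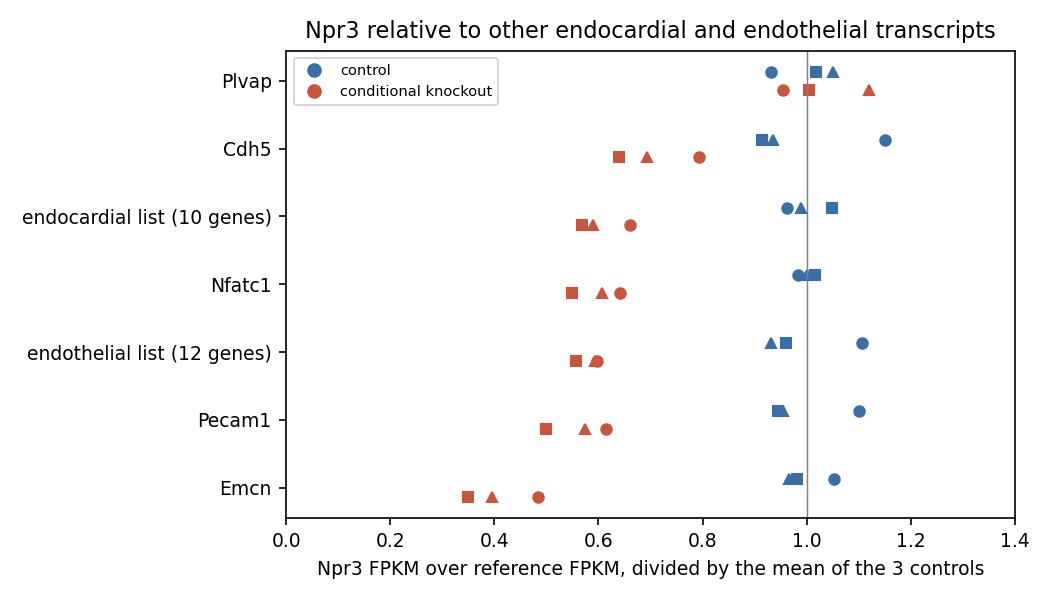
Npr3 FPKM divided by the FPKM of a reference gene or marker sum, per library, and scaled so that the mean of the 3 controls is 1. Conditional knockout libraries (red) overlap the controls (blue) for Plvap, and lie below them for the other 4 genes and both sums. Marker shapes give the replicate number (circle 1, square 2, triangle 3).

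The genes whose profile over the 6 libraries was most like that of Npr3 were sought by the root mean square difference of centred log2(FPKM + 1) values, among 8737 named genes whose mean reached 5 FPKM. The 5 nearest were Plvap at 0.09, Irx5 at 0.11, Ednrb at 0.11, Mmrn2 at 0.13 and Gpr126 at 0.14, where the profile of Npr3 itself had a root mean square of 0.58. Plvap, Ednrb and Gpr126 are on the endocardial list, Mmrn2 encodes a matrix protein of endothelium, and Irx5 encodes an Iroquois transcription factor known from the endocardium of the embryonic heart, although the marker lists used here place it among ventricular genes. Irx5 stood at 10.3, 8.98 and 8.21 FPKM across the control libraries, against 4.13, 4.22 and 4.15 FPKM in conditional knockouts. Likeness here rests mainly on the step between the groups, which all 5 genes share.

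Among the ligands, the libraries of the groups did not overlap for Nppa and overlapped for Nppb. Whether the 2 genes differed in their response was not tested. Nppa, on chromosome 4 from 148000722 to 148002079 on the plus strand, stood at 681, 779 and 756 FPKM across the control libraries, against 503, 627 and 602 FPKM in conditional knockouts. All 3 conditional knockout libraries lay below every control, and replicate 1 was the lowest library of each group. The means were 739 ± 51.1 and 577 ± 65.97 FPKM (SD, n = 3 each), a reduction of 21.9%, and the log2 difference was -0.36 ± 0.13 (SE). It ranged from -0.42 to -0.26 under the 14 other settings, with the value nearest 0 without conditional knockout replicate 1.

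Nppb, on chromosome 4 from 147985788 to 147987205, stood at 165, 113 and 126 FPKM across the control libraries, against 140.1, 163 and 135 FPKM in conditional knockouts. The highest value of all 6 libraries was in control replicate 1 and the groups overlapped. The log2 difference was 0.13 ± 0.16 (SE), and it was 0.28 without control replicate 1, 0.31 within replicates 2 and 3, 0.02 without control replicate 2 and 0.05 without conditional knockout replicate 2. The ratio of Nppa to Nppb was 4.14, 6.89 and 5.99 in controls and 3.59, 3.84 and 4.45 in conditional knockouts, where control replicate 1 lay among the conditional knockouts. Npr3 clears the products of both genes, whose summed level was 846 to 892 FPKM for the controls versus 643 to 791 FPKM for the conditional knockouts. Most of that sum was Nppa, so it largely repeats the Nppa difference and is not a separate result.

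Nppc, on chromosome 1 from 86666291 to 86670571, was close to the limit of the table. Its control values were 0.0435, 0.165 and 0 FPKM, and its conditional knockout values 0.150, 0.0813 and 0.0885 FPKM. It was the member that did not reach the minimum mean of 1 FPKM for the fit. No fold is given at this level, and the transcript for the ligand of Npr2 was not detectable at a level that would allow a comparison. Ostn, which encodes osteocrin, another ligand of Npr3, was listed at 0 in 4 libraries and at no more than 0.0562 FPKM in the others.

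Corin, on chromosome 5 from 72300025 to 72504473, stood at 14.3, 17.01 and 17.3 FPKM across the control libraries, against 16.1, 19.4 and 19.96 FPKM in conditional knockouts. The groups overlapped, with the lowest conditional knockout value below the upper control values, and replicate 1 was again the lowest library of each group. The log2 difference was 0.18 ± 0.12 (SE), and it was 0.10 without control replicate 1 and 0.27 without conditional knockout replicate 1. Because Nppa and Corin lay on opposite sides of 0, the ratio of the substrate transcript to that of its protease, 45.7 ± 1.91 in controls and 31.3 ± 1.10 in conditional knockouts (SD, n = 3 each), did not overlap between the groups.

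Of the 7 genes, 6 passed the minimum mean. In 2 of these 6 the libraries did not overlap and the conditional knockouts were lower, and in none were they higher, while over all genes tested these shares were 8.17% and 5.23%, or 13.4% in either direction. Since the genes were chosen with this comparison in view, nothing is read from these counts. The median log2 difference of the 6 genes was 0.04, with 3 below 0 and 3 above, beside -0.01 over all genes tested.

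The value of Nppa shares sequence with another transcript. Gm13054, annotated as antisense to Nppa, lies on chromosome 4 from 148001091 to 148004014 on the minus strand, and its exons cover 532 of the 865 exonic bases of Nppa (61.5%). It stood at 337, 376 and 356 FPKM across the control libraries, against 237, 278 and 243 FPKM in conditional knockouts, and its log2 difference was -0.50 ± 0.11 (SE, limma adjusted p = 0.333). The ratio of Nppa to Gm13054 was 2.02 to 2.13 in controls and 2.12 to 2.48 in conditional knockouts. The sources used here do not say whether reads were assigned by strand, and without it reads of the overlap cannot be told apart, so the levels of both are uncertain.

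Nppb ends 13516 bases before Nppa begins, and both are read from the plus strand. Besides Gm13054, the genes Plod1, 2510039O18Rik and Clcn6 passed the minimum mean between 50 kb before Nppb and 35 kb after Nppa. Their log2 differences were -0.10 ± 0.13, -0.18 ± 0.11 and 0.08 ± 0.16 (SE). None of them passed the threshold in limma (adjusted p = 0.808 to 0.942, unadjusted p = 0.15 to 0.63). Gm13054 did not pass either (limma adjusted p = 0.333, unadjusted p = 0.00286). This window was set after the values of the family were seen. Within it, Nppa and the antisense transcript that overlaps it had the lowest values.

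**Figure D4:**
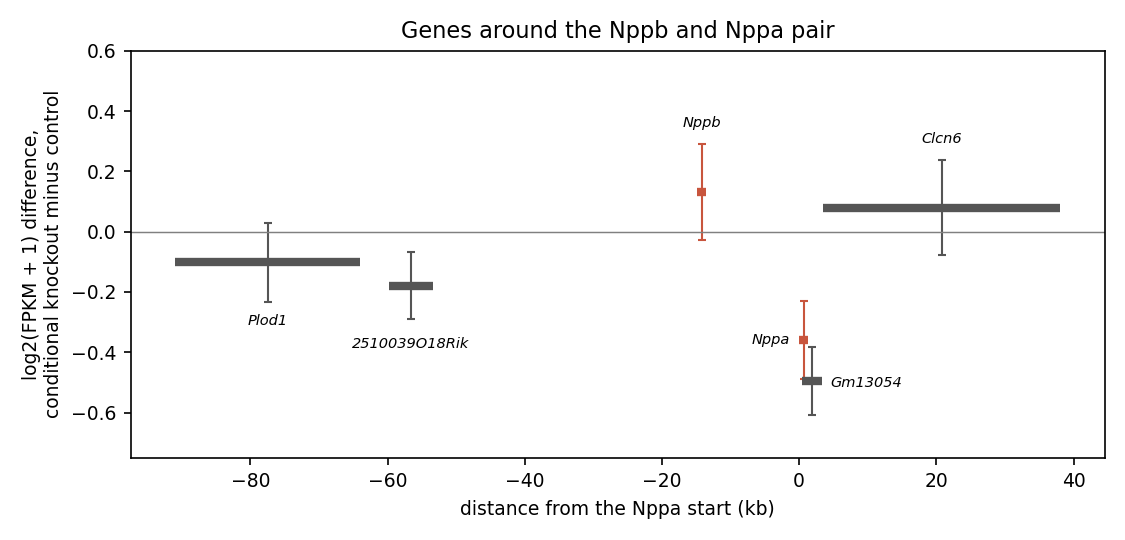
Log2(FPKM + 1) difference between conditional knockout and control hearts for the genes from 50 kb before Nppb to 35 kb after Nppa, drawn at their distance from the Nppa start in kilobases. Thick bars span the gene and thin bars are the moderated SE. Nppa (-0.36) and Gm13054 (-0.50) lie lowest, and Nppb lies at 0.13.

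The upstream sequence of Nppa is shown because Nppa was the ligand gene whose libraries did not overlap between the groups. The 250 bases before the RefSeq start (GRCm38.p6, chr4:148000472-148000721, plus strand) were searched on both strands for AGATAA and the related form TGATAA, both read by GATA factors, for AAGTG, read by NKX2-5, for GGTGTGA, read by T-box factors, for CAGGAAG, read by ETS factors, for GTAAACA, read by forkhead factors, and for the TATA box letters TATAAAA. Matches are in capitals.
Nppa: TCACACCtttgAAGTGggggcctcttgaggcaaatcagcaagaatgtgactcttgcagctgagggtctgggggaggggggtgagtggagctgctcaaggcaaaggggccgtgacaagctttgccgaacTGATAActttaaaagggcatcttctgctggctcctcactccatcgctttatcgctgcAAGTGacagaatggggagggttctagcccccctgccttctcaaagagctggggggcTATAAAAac
The T-box letters lay on the opposite strand at the far end, from 250 to 244 bases before the start, 1 NKX2-5 match from 239 to 235 and another from 65 to 61, the GATA match from 122 to 117 and the TATA box from 9 to 3. No matches overlapped. Over 27025 promoters of the same length in the RefSeq table, 3.31% held the T-box letters, 40.8% the NKX2-5 letters, 8.16% TGATAA, 10.3% AGATAA and 5.30% the TATA box. The Nppb window held both forms for GATA factors, TGATAA from 95 to 90 and AGATAA from 84 to 79 bases before its RefSeq start. It held a TATA box from 31 to 25, but no T-box or NKX2-5 letters. That start, at 147985900, lies inside the GENCODE span of Nppb given above, which begins at 147985788, and so do these Nppb matches. In the windows of the other 5 genes, Npr3 included, none of these letters was found. All 7 genes had an entry in the table. A match is a description of letters only.

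Myocardial markers were looked at beside Nppa, since trabecular and atrial muscle are its usual sites. Of 9 trabecular genes other than Nppa and Nppb none passed in limma (2 lower at an unadjusted p under 0.05), 7 lay below 0 and the median log2 difference was -0.15. Their summed level was 431 to 507 FPKM for the controls versus 339 to 373 FPKM for the conditional knockouts. Most of that sum was Cited1, a transcriptional coregulator gene, at 315 ± 37.1 and 204 ± 8.39 FPKM (SD, n = 3 each, limma adjusted p = 0.239). The ratio of Nppa to the trabecular sum was 1.42 to 1.75 in controls and 1.48 to 1.75 in conditional knockouts. Of 8 atrial genes none passed in limma, nor at an unadjusted p under 0.05 (median 0.06), and the ratio of Nppa to their sum was 0.112 to 0.129 and 0.0936 to 0.111. Of 8 cardiomyocyte genes none passed in either way (median -0.17), and the ratio of Nppa to their sum overlapped between the groups, at 0.0590 to 0.0713 and 0.0564 to 0.0670. No gene of these lists was at 0. In the other marker lists, Irx5 fell among 6 ventricular genes (limma adjusted p = 0.022, but 0.0604 with the replicate block and 0.0435 to 0.158 without 1 library, called only without control replicate 1). Irx5 is also known from embryonic endocardium, and which cells its lower level came from was not tested. The other 5 ventricular genes did not pass. All 6 lay below 0 (median -0.32), and 2, Irx5 and Hand1, were lower at an unadjusted p under 0.05 in limma. Their summed level was 7775 to 9065 FPKM for the controls versus 5528 to 8816 FPKM for the conditional knockouts. None passed of 5 compact myocardium, 6 epicardial, 5 cushion mesenchyme, 4 smooth muscle, 4 macrophage and 4 liver genes tested (at an unadjusted p under 0.05, the epicardial, cushion and smooth muscle lists each had 1 higher gene, the smooth muscle list 1 lower and the macrophage list 2 higher). Of 6 erythroid genes, Hbb-y and Hba-x were called higher (limma adjusted p = 2.55e-09 and 2.16e-08) and the other 4 did not pass. These 2 are among the 7 genes called higher over all genes tested. At an unadjusted p under 0.05 in limma, 4.37% of all genes tested were lower and 2.31% higher. The part of the amount of muscle RNA in the Nppa difference was not tested.

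The genes nearest to Nppa in profile, by the same measure as for Npr3, were St6galnac3 at 0.02, Lmcd1 and Ehbp1l1 at 0.04 and Vim and Trim25 at 0.05, where the profile of Nppa itself had a root mean square of 0.21. Vim, the gene of the intermediate filament protein vimentin, stood at 548, 602 and 582 FPKM across the control libraries, against 381, 523 and 478 FPKM in conditional knockouts. As in Nppa, replicate 1 was the lowest library of each group. None of the 5 passed in limma (adjusted p = 0.523 to 0.742).

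A wider set of 45 genes that process the peptides, make or break down cGMP, or control the peptide genes was then read from the same fit, and 40 of them passed the minimum mean. None was called in limma over all genes tested, lower or higher, with or without the replicate block. The median log2 difference was -0.05 beside -0.01 over all genes. At an unadjusted p under 0.05 there were 5 lower and 5 higher genes of the 40, and over all genes 4.37% were lower and 2.31% higher at that level. The libraries did not overlap in 8 lower and 5 higher genes of the 40, beside 8.17% lower and 5.23% higher over all genes.

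Among 5 genes that process or break down the peptides, 3 lay below 0 and 2 above, and none passed in limma (2 lower and 1 higher at an unadjusted p under 0.05). Furin, a convertase that cuts the Nppb precursor, stood at 32.7 ± 2.83 and 26.4 ± 2.02 FPKM (SD, n = 3 each), with a log2 difference of -0.30 ± 0.11 (SE, limma adjusted p = 0.729). Pcsk6, the convertase that activates Corin, had a log2 difference of -0.05 ± 0.17, and Ide, an enzyme that degrades the peptides, of 0.03 ± 0.11. Mme, the gene of neprilysin, which degrades natriuretic peptides, and Dpp4, a peptidase gene, were singled out after their values were seen. Mme stood at 5.10, 5.03 and 5.64 FPKM across the control libraries, against 6.44, 6.96 and 7.33 FPKM in conditional knockouts, without overlap, and its log2 difference of 0.34 ± 0.10 did not pass (SE, limma adjusted p = 0.559). Dpp4 stood at 7.33, 6.14 and 6.82 FPKM across the control libraries, against 4.68, 4.15 and 5.75 FPKM in conditional knockouts, also without overlap but lower, and its log2 difference of -0.41 ± 0.13 did not pass either (SE, limma adjusted p = 0.638).

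The other route to cGMP is the soluble guanylyl cyclase, which is switched on by nitric oxide. Its subunit genes Gucy1a3 and Gucy1b3 had log2 differences of -0.05 ± 0.12 and -0.08 ± 0.09 (SE). Nos3, the endothelial nitric oxide synthase gene, had the lowest value of all 40 genes. It stood at 11.8, 12.002 and 10.1 FPKM across the control libraries, against 5.57, 6.64 and 5.58 FPKM in conditional knockouts. All conditional knockout libraries lay below all controls, at means of 11.3 ± 1.04 and 5.93 ± 0.617 FPKM (SD, n = 3 each). The log2 difference was -0.83 ± 0.11 (SE), and it missed the threshold in limma (adjusted p = 0.0582, and 0.0508 to 0.338 over 14 other settings). Nos3 is itself a gene of endothelial cells. Of the 12 endothelial markers given above none passed in limma, with 10 below 0 and 2 above. Their log2 differences ran from -0.74 to 0.74. The part of cell number in the Nos3 difference was not tested. The remaining cyclase genes, Gucy1a2 and Gucy2c, were under the minimum mean.

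Downstream of cGMP, none of 12 effector genes that passed the minimum mean was called, with 6 below 0 and 6 above and a median of 0.05 (3 higher at an unadjusted p under 0.05 in limma). Vasp, a substrate of cGMP-dependent protein kinase, had a log2 difference of -0.25 ± 0.12, Rgs2, a regulator of G protein signals and another substrate, of 0.38 ± 0.15, and the phosphodiesterase gene Pde1a of 0.11 ± 0.15 (SE, limma adjusted p = 0.742 to 0.898). Pde2a, a phosphodiesterase that cGMP itself stimulates, was chosen after its values were seen as the highest of the 40. It stood at 2.21, 2.205 and 2.41 FPKM across the control libraries, against 3.47, 4.47 and 3.93 FPKM in conditional knockouts. The groups did not overlap, and the log2 difference of 0.59 ± 0.12 did not pass (SE, limma adjusted p = 0.245). For the inhibitory G proteins through which Npr3 can signal, Gnai2 had a log2 difference of -0.22 ± 0.10, Gnai3 of 0.05 ± 0.18 and Gnai1 of 0.08 ± 0.09 (SE).

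Transcription factor genes known to act on Nppa or Nppb were not called either, with 10 of 17 below 0 and a median of -0.04 (2 lower and 1 higher at an unadjusted p under 0.05 in limma). Gata4 stood at 128 ± 1.80 and 117 ± 18.6 FPKM, Tbx20, a T-box repressor and activator of heart genes, at 78.4 ± 2.98 and 81.3 ± 9.08 FPKM, and Nkx2-5 at 68.3 ± 16.3 and 51.4 ± 2.57 FPKM (SD, n = 3 each). Their log2 differences were -0.14 ± 0.13, 0.05 ± 0.11 and -0.38 ± 0.17 (SE, limma adjusted p = 0.769 to 0.958).

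**Figure D5:**
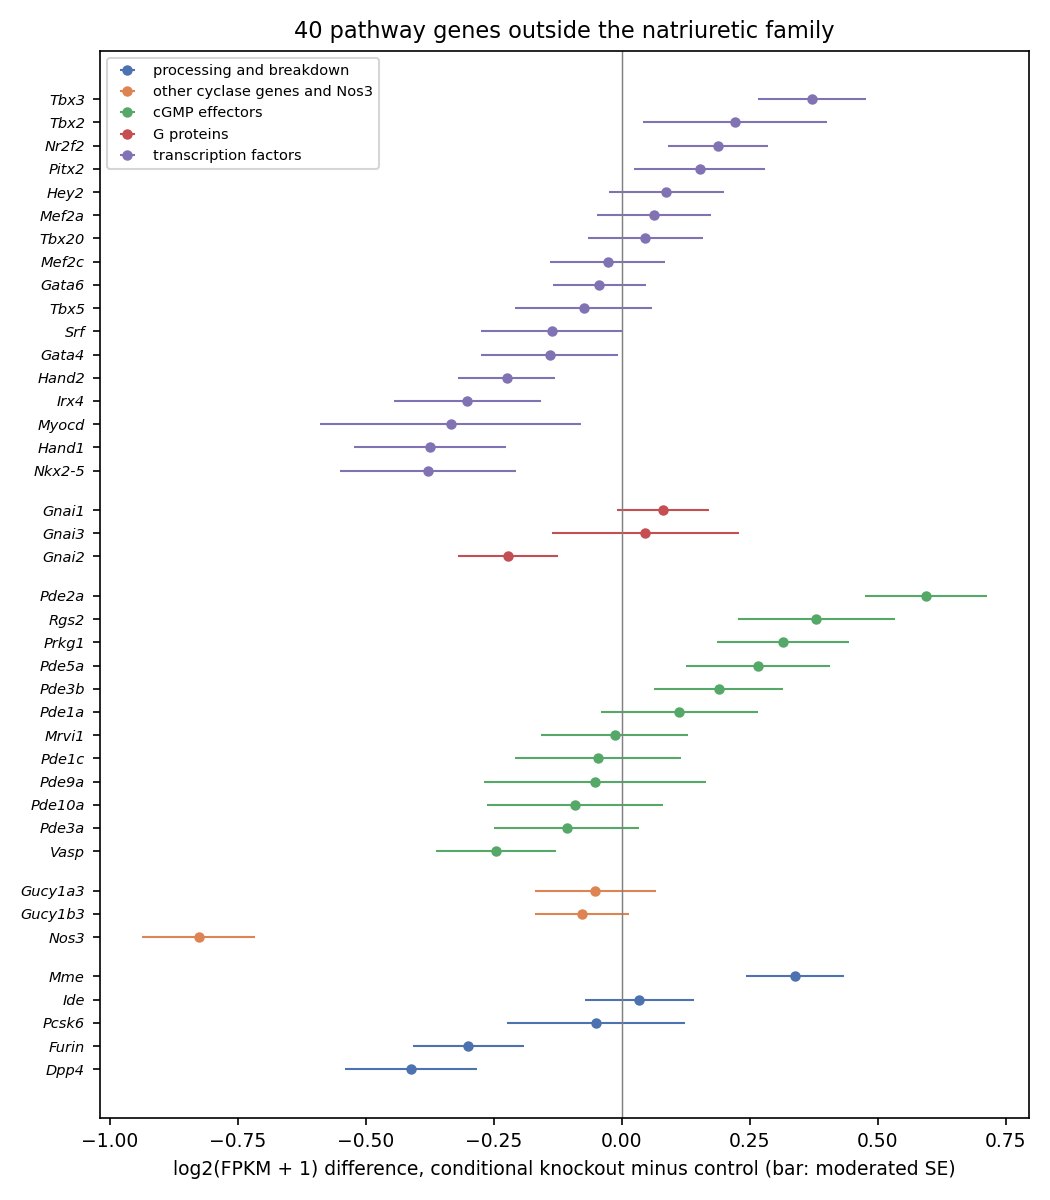
Log2(FPKM + 1) difference, conditional knockout minus control, of the 40 pathway genes that passed the minimum mean, grouped by role, with the moderated SE as bars. Nos3 lies lowest at -0.83 and Pde2a highest at 0.59, and no gene passed the threshold after adjustment over all 12988 genes.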

How the data were processed

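The authors deposited 1 table of FPKM values for 6 libraries. TruSeq libraries were made from Trizol-extracted RNA, per the labels' protocols. The submitters' processing notes name TopHat2 2.0.9, Cufflinks 2.2.1, Cuffdiff and HTSeq, without roles, and mm10; the sources used here give no annotation release, strand setting or handling of multiply mapping reads.

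Values were analysed as log2(FPKM + 1) over 12988 genes whose mean reached 1 FPKM, with limma 3.58.1 in R 4.3.3 (intensity trend, no block, Benjamini-Hochberg adjustment, threshold 0.05), after a check on simulated data. A fold change on this scale understates the change of low genes. The members and lists were chosen with earlier results of these data known. Named from each list were the genes that passed or, where none did, up to 3 with the highest mean. Positions are from GENCODE M21 (GRCm38, the assembly behind mm10), where 37607 identifiers were found. Some items of the locus around Nppa are not reported here.

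FPKM keeps no absolute depth. Among genes under 0.3 FPKM, 8.64% to 14.1% of ratios shared a 0.02 log2 window in pairs of replicates 2 and 3, and 1.20% to 3.56% in pairs with a replicate 1 library, so replicates 2 and 3 were also fitted alone. Same-numbered libraries deviated together in replicates 1 and 3. Their r was 0.267 and 0.439 over the 12805 tested genes above 0 throughout, and 0.189 and 0.229 over all 12988. In replicate 2 it was 0.109 and 0.0306, near that of control replicate 2 with conditional knockout replicate 3 (0.0953 and 0.0559). The number was taken as pairing in the replicate block setting, and the main fit had no block. The labels name no separate animals behind a library, and the series text describes portions of pooled RNA. The p-values therefore rest on the spread of these libraries alone. On that text this spread is technical and does not measure variation between animals.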

Additional observations from a re-analysis of the deposited data

How the results depend on the processing

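The settings were 14: pseudocounts of 0.1 and 0.5, no filter, a minimum mean of 5 FPKM, quantile normalization, median scaling, the replicate block, replicates 2 and 3 alone, and each library left out. Npr3 and Nppa lay below 0, and Nppb and Corin above 0, in all 14. Npr2 was at -0.25 within replicates 2 and 3. Over all genes 16 were lower and 7 higher. There were 7 lower without a filter and 8 within replicates 2 and 3, and 11 lower and 6 higher with the replicate block. Without 1 library, 4 to 9 were lower and 6 to 11 higher: 9 lower without control replicate 1, 6 without control replicate 3 or conditional knockout replicate 1 or 2, 4 without control replicate 2 or conditional knockout replicate 3, and 11 higher without conditional knockout replicate 2. Without 1 library fewer samples enter the fit, and without a filter more genes are tested. No pathway gene was called under any of the 14. Nppc had no value, being under the minimum, and Npr1 had none at a minimum of 5 FPKM.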
